A study of Mus musculus with 8 samples.

Results

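The Bcl2 family genes followed here numbered 10. They comprised the survival genes Bcl2, Bcl2l1, Mcl1 and Bcl2a1b, the effectors Bax and Bak1, and the BH3-only genes Bbc3, Bmf, Bcl2l11 and Pmaip1. Members were selected by gene symbol, and each matched 1 of the 57010 gene identifiers in the count table. Bcl2a1b was selected partly because it was high in rd10 retina at P18. Its difference between WT P15 and rd10 retina is therefore described without a test.

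Proteins of the Bcl2 family set whether the outer mitochondrial membrane is opened during apoptosis. Survival members hold the effectors BAX and BAK in check. BH3-only proteins, made or activated under stress, bind the survival members or the effectors, and activated BAX and BAK form pores that release cytochrome c and lead to caspase activation. In the retina this pathway has been studied mainly as a route of photoreceptor and ganglion cell loss, and the Bcl2a1 genes are best known from blood and immune cells.

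The libraries were made from poly(A) RNA of single whole retinas. There were 4 groups of 2 libraries: WT at P15, and rd10 at the ages P15, P18 and P21. The rd10 mice were homozygous for a Pde6b mutation that impairs the rod phosphodiesterase, and their rods degenerate soon after eye opening. The methods give wild-type littermates as the controls of rd10 mice. WT retina was measured at P15 alone, so age and genotype cannot be told apart in the comparisons of those ages with WT P15, and all 3 comparisons with WT P15 share the same 2 control libraries.

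Total counts lay between 28076947 and 33724562 per library. Rod markers were abundant in every library and lower in all 6 rd10 libraries, with a summed level of 39910 and 49660 CPM (read counts scaled to a common library size) in WT P15, against 19380 to 31690 for rd10 retina. In bulk tissue, fewer cells of a type and less RNA per cell cannot be told apart. By 4 Y-linked genes, both WT libraries were female, both rd10 P15 libraries were male, and the P18 and P21 groups held 1 of each. Genotype at P15 and sex therefore cannot be told apart within those 4 libraries. At both P18 and P21, replicate 1 was male and replicate 2 was female. A term for sex therefore rests on the P18 and P21 libraries alone, where sex and replicate number cannot be told apart. The labels name replicates without saying whether they came from separate animals, so p-values measure the spread between these libraries only.

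For CPM, each library's total was adjusted by the trimmed mean of M-values (TMM). A gene was called when edgeR's quasi-likelihood test gave a Benjamini-Hochberg adjusted p below 0.05 over 20457 tested genes together with an absolute log2 fold change above 1. All 10 members passed the filter on low counts, Bcl2a1b only through its counts in rd10 libraries.

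In rd10 retina the survival gene Mcl1 and the BH3-only genes Bbc3 and Bmf were above both WT libraries in every rd10 library, as was Bcl2a1b, whereas Bcl2 was below both WT libraries in 5 of 6. These differences were mostly below 2-fold and few passed the test. Excluding Bcl2a1b, 0 of 9 members were called in any of the 6 comparisons. In rd10 P15 against WT P15 the background share of called genes was 0.23%, in rd10 P18 against WT P15 it was 1.48% and in rd10 P21 against WT P15 it was 0.386%. Among rd10 ages it was 0.591% for P18 against P15, 0.401% for P21 against P15 and 0.0196% for P21 against P18. At an unadjusted p below 0.05, 2, 5 and 2 of these 9 members passed against WT P15 when rd10 was P15, P18 and P21, beside 12.3%, 17.4% and 11.8% of all genes. DESeq2 called Bbc3 in rd10 P15 against WT P15, where it called 2.02% of all genes. It called no other of these 9 members there or in the remaining comparisons, where it called 4.55% (P18) and 2.74% (P21) of genes against WT P15, and 2.88% (P18 against P15), 2.59% (P21 against P15) and 0.627% (P21 against P18) among rd10 ages.

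The 4 members above both WT libraries in all 6 rd10 libraries compare with 7.21% of tested genes. Both rd10 libraries lay above both WT libraries for 4 members at P15, 8 at P18 and 5 at P21, beside 24.8%, 24.1% and 24.9% of all tested genes. The median log2 fold change of the members was 0.35, 0.54 and 0.115 in rd10 P15, P18 and P21 compared with WT P15, while all genes had medians of -0.006, 0.011 and 0.001. With libraries scaled by total counts alone, the median of all genes shifted to 0.033, 0.135 and 0.112. Bcl2a1b, selected partly because it was high at rd10 P18, is included in each of these counts and medians of the members. The members were picked with results of these libraries known, so their counts and medians are given as a description.

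**Figure D1:**
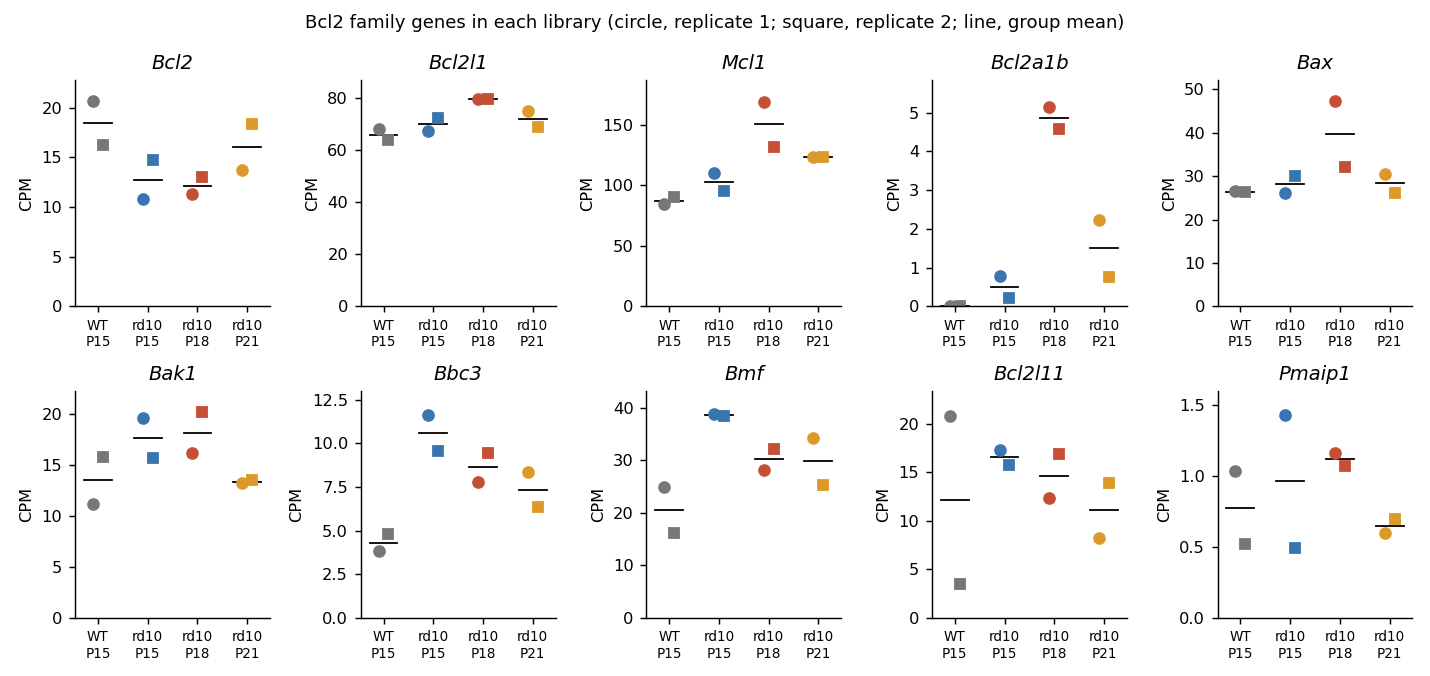
Level of each of the 10 Bcl2 family genes in CPM (vertical axis, from 0) in WT P15 and rd10 P15, P18 and P21 retina (horizontal axis); circles and squares are replicates 1 and 2 and the line is the group mean. Mcl1, Bbc3, Bmf and Bcl2a1b lay above both WT libraries in all 6 rd10 libraries, and the WT libraries of Bcl2l11 lay at 20.8 and 3.53 CPM.

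Among the survival genes, Mcl1, which encodes a short-lived protein that restrains BAK, had the largest log2 fold change after Bcl2a1b at P18 and P21, whereas at P15 Bcl2 had a larger one. It was 84.5 and 90.2 CPM in WT, then 110 and 95.4 at P15, 169 and 132 at P18 and 124 in each library at P21 in rd10 retina. Every rd10 library was above both WT libraries, and the P18 libraries were the highest of the 8. The log2 fold change against WT P15 was 0.24 ± 0.15 (SE) at P15, 0.79 ± 0.16 at P18 and 0.51 ± 0.16 at P21. With edgeR, the P18 difference had an adjusted p of 0.047 and was a 1.73-fold rise, below the fold threshold, while the adjusted p was 0.598 at P15 and 0.233 at P21. The P18 adjusted p was 0.0018 with DESeq2, 0.109 with a term for sex and 0.0017 to 0.313 when 1 library was left out; it passed 0.05 only when an rd10 P18 library was the one omitted. The difference between rd10 P18 and rd10 P15 was 0.55 ± 0.16 on the log2 scale (edgeR adjusted p = 0.194).

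Bcl2, the founding survival gene, was lower in most rd10 libraries. It was 20.6 and 16.3 CPM in WT, then 10.8 and 14.7 at P15, 11.3 and 13.04 at P18 and 13.7 and 18.4 at P21 in rd10 retina. The P15 and P18 groups did not overlap WT P15, whereas the P21 group did. The log2 fold change was -0.53 ± 0.25 at P15, -0.60 ± 0.25 at P18 and -0.20 ± 0.25 at P21, with edgeR adjusted p of 0.443, 0.268 and 0.848. D630008O14Rik, which overlaps Bcl2 on the opposite strand, had 0 counts in every library.

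Bcl2l1, whose main product BCL-XL is a survival protein of neurons, varied least. It was 67.9 and 63.6 CPM in WT, then 67.1 and 72.3 at P15, 79.6 in each library at P18 and 74.9 and 68.7 at P21 in rd10 retina. Its largest difference from WT P15 was at P18, with a log2 fold change of 0.28 ± 0.13 and an edgeR adjusted p of 0.308.

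Bcl2a1b encodes an A1 protein, a survival member induced by inflammatory signals in myeloid and lymphoid cells. It had 0 and 0 counts in WT, then 25 and 6 at P15, 173 and 145 at P18 and 78 and 22 at P21 in rd10 retina. In CPM these were 0 and 0, then 0.796 and 0.212, then 5.16 and 4.57, then 2.23 and 0.769. All rd10 libraries had reads and no WT library did, and the P18 libraries were highest. Since WT had no counts, 3 counts over both WT libraries together served as a floor, and Bcl2a1b was at least 10.01-fold higher at P15, at least 94.1-fold at P18 and at least 30.4-fold at P21. These bounds fell to 4.09-fold without rd10 P15 replicate 1 and to 14.9-fold without rd10 P21 replicate 1, while that at P18 stayed between 88.2 and 99.7 without either of its libraries. A count of 0 allows up to 0.111 and 0.0971 CPM in the WT libraries, for counting error only. Within rd10, the P18 level was 9.40 times the P15 level, and 23.0 or 6.13 times when rd10 P15 replicate 1 or 2 was left out. By summed counts, the P21 level was 3.03 times the P15 level with overlapping libraries, a difference on which the selection did not rest. This ratio was 7.43 and 1.98 without rd10 P15 replicate 1 or 2, and 1.48 and 4.30 without rd10 P21 replicate 1 or 2. The edgeR estimate for P21 against P15 was 2.95 times (adjusted p = 0.465).

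Mice carry several near-identical Bcl2a1 copies on chromosome 9, so the assignment of reads among them is uncertain. In GRCm38 with GENCODE M21, Bcl2a1b lies at chr9:89199209-89207827 on the plus strand, Bcl2a1a at chr9:88956900-88962419 on the plus strand and Bcl2a1d at chr9:88723285-88731914 on the minus strand, and each has 2 exons. The coding sequences of these 3 copies are 516 bases long and differ at 12 positions in all. Bcl2a1b differs from Bcl2a1a at 11 bases and from Bcl2a1d at 6. The first 120 coding bases, all in 1 exon, hold 7 of the differing positions, shown in capitals (chr9:89199360-89199479 plus, chr9:88957051-88957170 plus and chr9:88731600-88731719 minus, in the order below).
Bcl2a1b: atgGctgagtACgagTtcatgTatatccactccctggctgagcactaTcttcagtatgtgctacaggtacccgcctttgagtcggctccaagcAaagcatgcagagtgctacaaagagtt
Bcl2a1a: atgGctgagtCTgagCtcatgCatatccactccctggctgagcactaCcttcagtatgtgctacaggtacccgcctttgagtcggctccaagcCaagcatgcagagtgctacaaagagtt
Bcl2a1d: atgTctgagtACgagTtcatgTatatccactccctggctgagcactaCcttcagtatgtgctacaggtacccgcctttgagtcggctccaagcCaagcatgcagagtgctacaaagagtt

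Coding bases 300 to 420 hold a further 4 differing positions, again in capitals (chr9:89199659-89199779 plus, chr9:88957350-88957470 plus and chr9:88731300-88731420 minus).
Bcl2a1b: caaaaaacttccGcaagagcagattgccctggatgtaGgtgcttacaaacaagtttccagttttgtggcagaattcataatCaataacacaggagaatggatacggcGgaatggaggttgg
Bcl2a1a: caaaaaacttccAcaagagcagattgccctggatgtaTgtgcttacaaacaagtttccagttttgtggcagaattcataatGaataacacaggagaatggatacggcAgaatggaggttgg
Bcl2a1d: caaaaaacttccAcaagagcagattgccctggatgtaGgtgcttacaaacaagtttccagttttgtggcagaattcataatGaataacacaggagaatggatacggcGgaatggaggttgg

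Between these positions the copies share long identical runs. Of all 50-base windows of the Bcl2a1b transcript, 42.45% occur in no other copy, as do 68.94% of 100-base and 85.78% of 150-base windows. How the authors' counting treated reads that match several copies is not given in the sources used here. Gm29094, annotated on the same strand, shares 401 exonic bases (49.1%) with Bcl2a1b and had 0 to 7 counts.

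The other copies were also highest at P18. Bcl2a1a had 0 and 0 counts in WT, then 0 and 3 at P15, 74 and 28 at P18 and 0 and 0 at P21 in rd10 retina. Bcl2a1d had 0 and 9 in WT, then 1 and 0 at P15, 59 and 51 at P18 and 24 and 8 at P21 in rd10 retina. Bcl2a1c had 0 counts in every library. At P21 Bcl2a1a thus had no reads while Bcl2a1d had reads in both libraries.

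Summed over the copies, the 2 WT libraries together held 9 counts, and the rd10 pairs held 35 at P15, 530 at P18 and 132 at P21. The sum does not depend on how reads counted once were split among the copies. Reads left out, or counted more than once, because they match several copies would change it. The sum was 3.77 times the WT level at P15, 52.3 times at P18 and 13.4 times at P21. The 9 WT counts were all from Bcl2a1d in replicate 2. At P15 the summed level was 0.827 and 0.317 CPM in rd10 retina, against 0 and 0.291 in WT. The higher bounds given above for Bcl2a1b alone therefore depend on how reads were assigned among the copies. Bcl2a1b held 31 of the 35 summed counts at P15 (88.6%), 318 of 530 at P18 and 100 of 132 at P21 (75.8%), and 0 of 9 in WT P15.

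**Figure D2:**
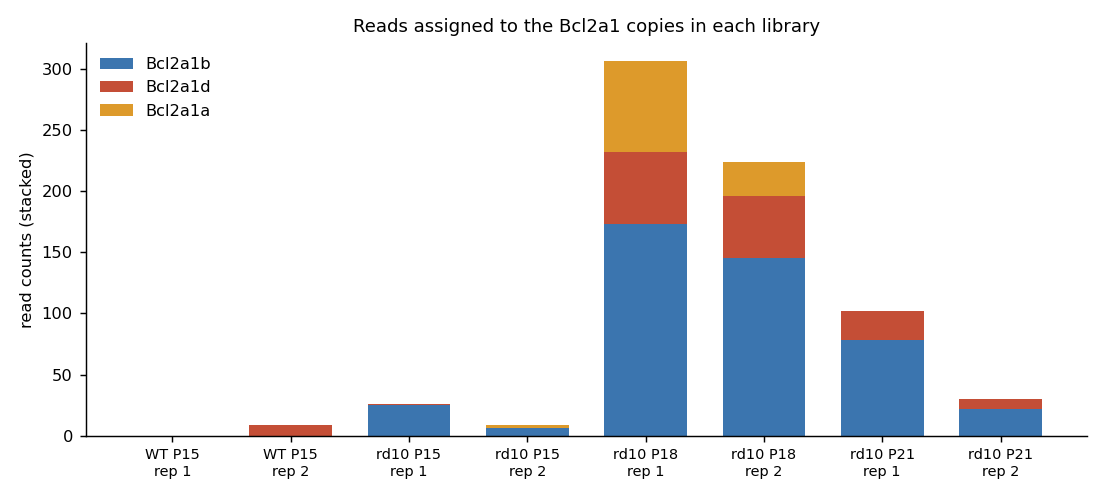
Read counts (vertical axis) assigned to Bcl2a1b, Bcl2a1d and Bcl2a1a in each of the 8 libraries (horizontal axis), stacked. The rd10 P18 libraries hold 306 and 224 reads over the copies, the rd10 P15 libraries hold 26 and 9, and the reads in WT P15 are 9 of Bcl2a1d in 1 library.

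The region before the RefSeq start of the 3 copies is also nearly shared. It is shown because these copies were high together. Capitals mark a TGANTCA match (the AP-1 motif) and GAGGAA matches (the core of sites for ETS factors such as PU.1) on the strand shown. A GAGGAA match on the opposite strand, near the end of the Bcl2a1d window, is left in lower case. The windows lie at chr9:89199059-89199155 plus, chr9:88956750-88956846 plus and chr9:88731918-88732014 minus (RefSeq promoters, GRCm38.p6).
Bcl2a1b: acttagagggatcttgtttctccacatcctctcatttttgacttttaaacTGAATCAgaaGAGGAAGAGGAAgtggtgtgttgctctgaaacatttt
Bcl2a1a: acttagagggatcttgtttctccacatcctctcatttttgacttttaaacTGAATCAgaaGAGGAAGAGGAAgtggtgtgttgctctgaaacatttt
Bcl2a1d: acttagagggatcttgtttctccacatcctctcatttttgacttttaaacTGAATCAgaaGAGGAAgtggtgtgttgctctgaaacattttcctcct

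The 12 genes searched, the members without Pmaip1 and the other Bcl2a1 copies, had 19 promoter windows. On either strand, TGANTCA was found in 3 of these 19, which were those of the 3 copies above, and in 7.81% of all 32851 promoter windows. GAGGAA was found in 7 of the 19 windows, each of a different gene (Bak1, Bcl2, Bmf and the 4 Bcl2a1 copies) and in 28.3% of all windows. TTCNNNGAA, a form of the STAT motif, and the consensus NF-kappaB motif were found in none of the 19 windows, and in 8.30% and 0.155% of all windows. A match describes letters only.

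Neither effector was called against WT P15, and the largest of their differences was that of Bax at P18. Bax, whose product moves from the cytosol to mitochondria, was 26.5 and 26.4 CPM in WT, then 26.2 and 30.0 at P15, 47.3 and 32.1 at P18 and 30.6 and 26.2 at P21 in rd10 retina. Both P18 libraries were above both WT libraries, replicate 1 by more. The log2 fold change against WT P15 was 0.09 ± 0.21 at P15, 0.59 ± 0.21 at P18 and 0.10 ± 0.21 at P21, with edgeR adjusted p of 0.921, 0.204 and 0.931. The P18 value was 0.28 without rd10 P18 replicate 1 (adjusted p = 0.549) and 0.84 without replicate 2 (adjusted p = 0.016), so it rested largely on replicate 1.

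Bak1, the effector that resides in the mitochondrial membrane, was 11.1 and 15.8 CPM in WT, then 19.6 and 15.6 at P15, 16.2 and 20.1 at P18 and 13.2 and 13.49 at P21 in rd10 retina. Only the P18 group was wholly above WT P15. Its log2 fold change was 0.39 ± 0.24 at P15, 0.43 ± 0.24 at P18 and -0.01 ± 0.24 at P21, with edgeR adjusted p of 0.572, 0.404 and 0.995. Bak1 overlaps Ggnbp1 on the opposite strand over part of its exons. Whether the authors' counting used strand is not given in the sources used here.

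The BH3-only gene Bbc3 encodes PUMA, a target of p53 that binds every survival member. It was 3.81 and 4.82 CPM in WT, then 11.7 and 9.55 at P15, 7.79 and 9.45 at P18 and 8.34 and 6.36 at P21 in rd10 retina. All 6 rd10 libraries were above both WT libraries, and those at P15 were the highest. The log2 fold change against WT P15 was 1.295 ± 0.28 at P15 (2.45-fold), 1.00 ± 0.28 at P18 (1.99-fold) and 0.77 ± 0.28 at P21 (1.70-fold). With edgeR none was called, at adjusted p of 0.109, 0.125 and 0.335. DESeq2 gave adjusted p of 0.011, 0.057 and 0.304. The P15 fold lay between 1.14 and 1.48 on the log2 scale when any 1 library was left out. It was 1.24 with a term for sex, which the P18 and P21 libraries alone set (edgeR adjusted p = 0.434).

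Bmf, a BH3-only gene whose product is held at the actin cytoskeleton, was also highest at P15. It was 25.0 and 16.1 CPM in WT, then 38.8 and 38.3 at P15, 28.2 and 32.1 at P18 and 34.3 and 25.2 at P21 in rd10 retina. Each rd10 library exceeded both WT libraries, rd10 P21 replicate 2 by a small margin. Its log2 fold change was 0.91 ± 0.24 at P15, 0.55 ± 0.24 at P18 and 0.54 ± 0.24 at P21 (edgeR adjusted p = 0.172, 0.285 and 0.441). DESeq2 gave an adjusted p of 0.041 at P15, below the fold threshold. The P15 value was 1.26 when WT replicate 1 was left out and 0.63 when WT replicate 2 was.

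Bcl2l11, which encodes BIM, varied most between the WT libraries. It was 20.8 and 3.53 CPM in WT, from 563 and 109 counts, then 17.3 and 15.8 at P15, 12.3 and 17.0 at P18 and 8.25 and 13.9 at P21 in rd10 retina. All 6 rd10 libraries lay between the 2 WT libraries. The log2 fold change at P15 was 0.45 ± 0.73 (edgeR adjusted p = 0.876), 2.23 when WT replicate 1 was left out and -0.33 when WT replicate 2 was. No direction could be drawn.

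Pmaip1, which encodes NOXA, a BH3-only protein that binds MCL1, was low, at 14 to 45 counts per library. It was 1.03 and 0.518 CPM in WT, then 1.43 and 0.494 at P15, 1.16 and 1.07 at P18 and 0.600 and 0.699 at P21 in rd10 retina. The P15 and P21 groups overlapped WT P15. The P18 log2 fold change was 0.53 ± 0.79 (edgeR adjusted p = 0.785), less than its standard error.

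**Figure D3:**
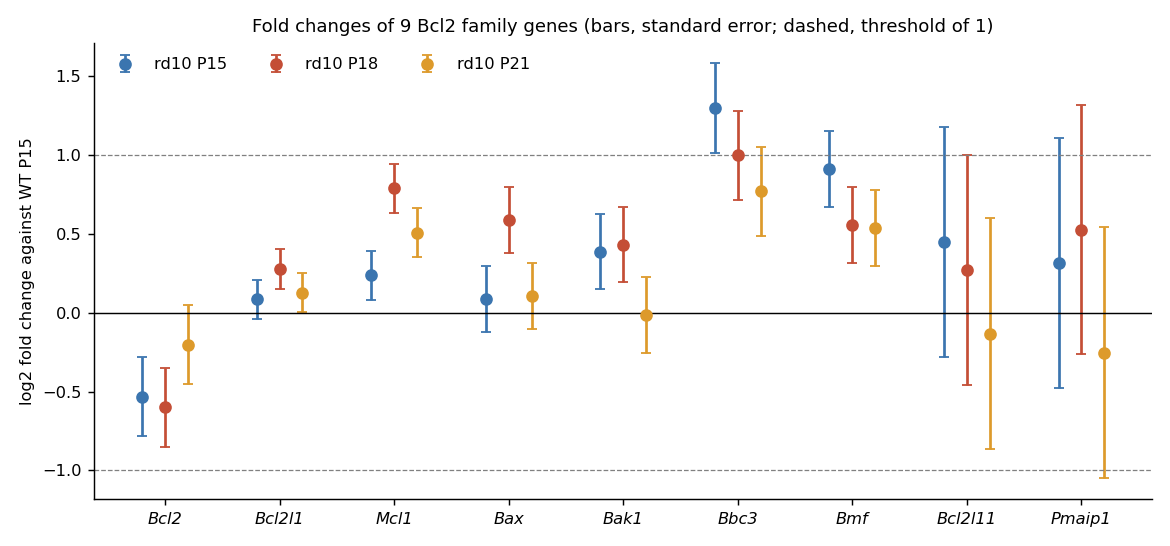
Log2 fold change against WT P15 (vertical axis) of 9 Bcl2 family genes (horizontal axis) at rd10 P15, P18 and P21; bars are standard errors from edgeR and dashed lines mark the fold threshold of 1. Bbc3 reached 1.295 at P15, Mcl1 0.79 at P18 and Bcl2 -0.60 at P18, and the bars of Bcl2l11 and Pmaip1 are the widest.

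Between the rd10 ages, the members differed in the age at which they were highest. Bax was above its P15 libraries at P18 by 0.50 ± 0.21 on the log2 scale, and Mcl1 by 0.55 ± 0.16. Bbc3 and Bmf were below their P15 libraries at P18, by -0.30 ± 0.28 and -0.36 ± 0.24. None of these 4 passed the test (edgeR adjusted p = 0.365, 0.194, 0.698 and 0.580). From P18 to P21 the median log2 fold change of the members was -0.342, against -0.001 for all genes. Both P21 libraries were below both P18 libraries for 6 of 10 members, beside 22.0% of tested genes. Bcl2a1b, selected partly because it was high at rd10 P18, is in this median and among the 6. The others of the 6 were Bcl2l1, Mcl1, Bax, Bak1 and Pmaip1.

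Per kilobase of exon, the order of the members was stable at the top. Mcl1, Bax and Bcl2l1 ranked 1, 2 and 3 in every group, at 25.5 ± 1.18, 16.8 ± 0.0343 and 14.3 ± 0.659 CPM per kb (mean ± SD, n = 2) in WT P15. Bax and Bcl2l1 did not overlap in any group. Bak1 and Bmf followed in WT P15 at 5.59 ± 1.37 and 3.91 ± 1.19, with overlapping ranges. Bbc3 and Bcl2 at 2.03 ± 0.339 and 2.01 ± 0.338 and Bcl2l11 at 1.52 ± 1.52 could not be ordered, and Pmaip1 was at 0.284 ± 0.134. Bcl2a1b ranked 10 in WT P15 and 5 in rd10 P18, at 5.95 ± 0.512 CPM per kb, where it lay between Bak1 and Bmf and overlapped Bmf in range. Exon lengths came from GENCODE M21 and include all isoforms, which lowers values of genes with long alternative ends.

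Ratios within a library do not depend on how libraries are scaled. The ratio of Bax to Bcl2 counts, an effector against a survival gene, was 1.28 and 1.62 in WT, then 2.43 and 2.04 at P15, 4.19 and 2.46 at P18 and 2.23 and 1.43 at P21 in rd10 retina. It was above WT P15 in both libraries at P15 and P18 and overlapped at P21. The mean was 1.54 times WT at P15 and 2.23 times at P18, each with p = 0.333 (two-sided exact permutation test, the smallest p that 2 against 2 allows).

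Against Bcl2l1 the ratio of Bax counts was 0.390 and 0.415 in WT P15 and 0.381 to 0.415 in 5 of 6 rd10 libraries. Only rd10 P18 replicate 1 stood apart, at 0.594. The ratio of Bbc3 to Mcl1 counts was 0.0451 and 0.0535 in WT, then 0.106 and 0.100 at P15, 0.0460 and 0.0716 at P18 and 0.0673 and 0.0513 at P21 in rd10 retina. Thus it was 2.09 times WT at P15 without overlap and overlapped WT at P18 and P21 (two-sided exact permutation p = 0.333, 0.667 and 0.667 before adjustment).

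**Figure D4:**
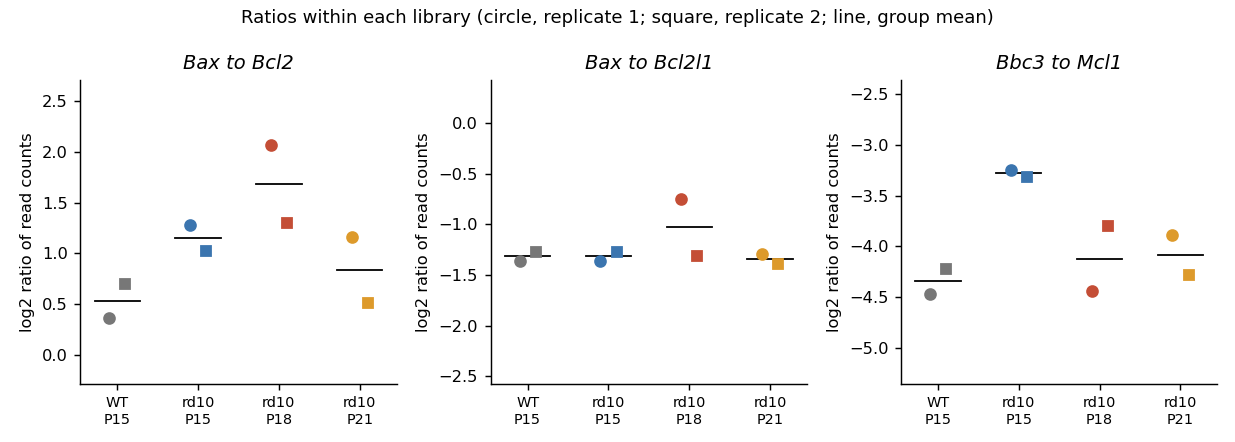
Log2 ratio of read counts within each library (vertical axis, not divided by gene length) for Bax to Bcl2, Bax to Bcl2l1 and Bbc3 to Mcl1 in the 4 groups (horizontal axis); circles and squares are replicates 1 and 2 and lines are group means. Bax to Bcl2 is highest in rd10 P18, Bbc3 to Mcl1 is highest in rd10 P15, and Bax to Bcl2l1 departs from the other libraries in rd10 P18 replicate 1.

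Other genes of the pathway were taken as fixed lists. Of 14 upstream regulators of the family, 2 were called higher in rd10 P18 against WT P15, beside 1.15% of all genes, and 0 lower, with a list median of 0.529 on the log2 scale. In the lists of 5 other guardians, 5 other effector and BH3-only genes, 7 further Bcl2-homology genes and 10 apoptosome genes, of which 4, 4, 6 and 10 were tested, edgeR called none in either direction in any of the 6 comparisons. DESeq2 called 2 of them. Bid, a BH3-only gene cleaved by caspase-8, was 4.77 and 4.37 CPM in WT P15 and 10.8 and 8.35 in rd10 P18, a log2 fold change of 1.07 ± 0.29 (adjusted p = 0.110 with edgeR and 0.041 with DESeq2). Bcl2a1d was called in rd10 P18 against rd10 P15 (adjusted p = 0.203 with edgeR and 0.021 with DESeq2), from 1 count over both P15 libraries. It is a near-identical copy of Bcl2a1b, which was selected partly because it was high at rd10 P18. The call of Bcl2a1d is therefore given as a description.

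Stat3, a transcription factor of cytokine signalling also counted here among markers of reactive Müller glia, was 70.8 and 72.7 CPM in WT, then 61.0 and 62.1 at P15, 194 and 205 at P18 and 154 and 168 at P21 in rd10 retina. The P18 and P21 libraries were above all P15 libraries of either genotype. It rose over WT by 1.47 ± 0.12 at P18 and 1.16 ± 0.12 at P21 (edgeR adjusted p = 0.0027 and 0.023). Against rd10 P15 it rose by 1.70 ± 0.12 and 1.39 ± 0.12 (adjusted p = 0.0012 and 0.0048). Both P18 calls held under all the settings run. The P21 call against WT P15 was lost when either WT library, either rd10 P15 library or rd10 P21 replicate 1 was left out (adjusted p = 0.064 to 0.162), and that against rd10 P15 when either rd10 P15 library was (0.079 and 0.065).

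Cdkn1a, which encodes the cell cycle inhibitor p21 and is a standard p53 target, was 5.88 and 4.95 CPM in WT, then 8.66 and 6.03 at P15, 17.2 and 16.4 at P18 and 13.8 and 12.4 at P21 in rd10 retina. It rose by 1.63 ± 0.25 at P18 (edgeR adjusted p = 0.028), a call lost without WT replicate 1 or 2 (adjusted p = 0.154 and 0.135), with a term for sex (0.055) and when only the 4 libraries compared were fitted (0.061). At P21 the value was 1.28 ± 0.25, with an adjusted p of 0.086 with edgeR and 0.0025 with DESeq2, and with edgeR it was called without rd10 P18 replicate 1 or 2 (0.045 and 0.046). Against rd10 P15, the P18 value was 1.19 ± 0.25 (adjusted p = 0.097 with edgeR and 0.0052 with DESeq2). Trp53 itself was 0.69 ± 0.19 at P18 (edgeR adjusted p = 0.116).

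By absolute log2 fold change in rd10 P18 against WT P15, the leading gene of each remaining list was as follows. Among guardians it was Bcl2a1a, a near-identical copy of Bcl2a1b, at least 30.2-fold higher. Hrk, a BH3-only gene of neurons, led the effector and BH3-only list at 1.43 ± 0.40 (edgeR adjusted p = 0.124), with 1.37 and 1.10 CPM in WT P15 and 3.04 and 3.62 in rd10 P18. Bcl2l12 led the homology list at 1.51 ± 0.93 (adjusted p = 0.448) with overlapping libraries. Birc3, which encodes an inhibitor of apoptosis protein, led the apoptosome list at 1.69 ± 1.35 (adjusted p = 0.568), from 0 CPM in 1 WT library and 1.198 in the other.

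Below the fold threshold, Jun, a subunit of AP-1, rose by 0.85 ± 0.12 at P18 (edgeR adjusted p = 0.022), and Xiap, a caspase inhibitor, fell by 0.87 on the log2 scale (SE 0.15, adjusted p = 0.031). Without WT replicate 1 the adjusted p was 0.190 for Jun and 0.217 for Xiap, and without WT replicate 2 it was 0.103 and 0.125. Without rd10 P15 replicate 1 or 2 it was 0.0502 and 0.052 for Jun and 0.068 and 0.069 for Xiap. With only the 4 libraries compared it was 0.096 and 0.126, and with a term for sex it was 0.041 for Jun and 0.0505 for Xiap. Bid, Jun, Xiap and Trp53 were chosen after their values were seen.

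**Figure D5:**
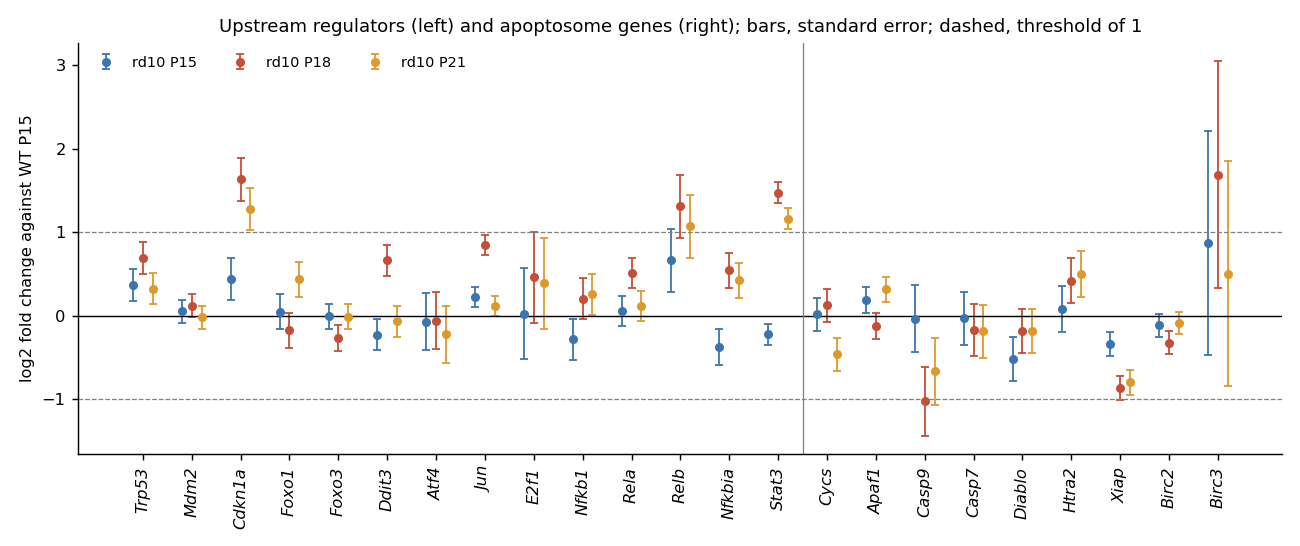
Log2 fold change against WT P15 (vertical axis) of 14 upstream regulators and 9 apoptosome genes (horizontal axis, separated by the grey line) at rd10 P15, P18 and P21; bars are standard errors from edgeR and dashed lines mark the fold threshold of 1. Stat3 and Cdkn1a at P18 and Stat3 at P21 were called, and Birc3, at 0 CPM in 1 WT library, has the widest bars.

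Markers of several cell types differed between the groups. Microglial markers summed to 72.8 and 83.9 CPM in WT, then 108 and 104 at P15, 272 and 281 at P18 and 384 and 201 at P21 in rd10 retina. All 10 were above both WT libraries at P18 and at P21, beside 24.1% and 24.9% of all tested genes. Of them, 4 and 3 were called higher, beside 1.15% and 0.244% of all genes. Monocyte and macrophage markers, 7 of 8 tested, summed to 4.07 and 7.90 CPM in WT, then 8.91 and 7.58 at P15, 51.3 and 47.9 at P18 and 42.2 and 18.5 at P21 in rd10 retina.

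Granulocyte markers, 1 of 8 tested, summed to 1.33 and 0.518 CPM in WT P15. For rd10 retina the sums were 1.05 and 0.212 at P15, 3.82 and 2.68 at P18, and 5.08 and 2.03 at P21. The tested marker, Csf3r, was above both WT libraries at P18 and P21 but was not called. Its log2 fold changes were 1.35 ± 0.83 and 2.04 ± 0.84 (edgeR adjusted p = 0.450 and 0.396). S100a8 had 51 counts in rd10 P18 replicate 1, and Ly6g, Mpo and Elane were at 0 in each library. Lymphocyte markers summed to 0.407 to 3.88 CPM over all libraries. Markers of reactive Müller glia summed to 261 and 294 CPM in WT, then 230 and 231 at P15, 1584 and 1551 at P18 and 975 and 784 at P21 in rd10 retina. Bcl2a1b, like the macrophage and Müller lists, was highest in both P18 libraries, and within P21 it was higher in replicate 1, as were the microglial, macrophage, granulocyte, lymphocyte, reactive Müller glial, lens and endothelial sums. Lens markers summed to 0.444 to 6.47 CPM over all libraries.

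At P15, where Bbc3 and Bmf were highest, other lists differed from WT. Cone markers summed to 1491 and 1151 CPM in WT P15 and 679 and 776 in rd10 P15. All 8 were below both WT libraries, and 1 of them, Arr3, was called, beside 0.23% of all genes. For genes below both WT libraries, the share over all genes is not reported here. Red blood cell markers summed to 188 and 177 CPM in WT P15 and 67.1 and 84.6 in rd10 P15. Pigment epithelium markers summed to 386 and 547 CPM in WT, then 633 and 592 at P15, 329 and 293 at P18 and 401 and 403 at P21 in rd10 retina. At P15, 5 of 8 were above both WT libraries, beside 24.8% of all tested genes. Endothelial markers summed to 316 and 387 CPM in WT P15 and 424 and 374 in rd10 P15. Of these 6, 3 were above both WT libraries, beside the same 24.8%, and 1 was below both. Called at 4.0-fold higher was 1 of the 6, the tight junction gene Cldn5, beside 0.23% of all genes called. It went from 8.87 and 8.19 CPM to 33.9 and 34.4 (edgeR adjusted p = 0.015). The part of cell composition in the levels of Bcl2a1b, Mcl1, Bax, Bbc3 and Bmf was not tested.

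The 5 genes whose log2 CPM followed Bcl2a1b most closely over the 8 libraries, the other copies left out, were Arpc1b (Pearson's r = 0.996), Dlx3 (0.983), Fcgr3 (0.981), Gatm (0.977) and Mmp14 (0.976). Arpc1b encodes an actin-nucleating Arp2/3 subunit, Fcgr3 an Fc receptor of myeloid cells, Gatm an enzyme of creatine synthesis and Mmp14 a membrane-bound matrix metalloprotease. Arpc1b was 3.58 and 3.08 CPM in WT P15 and 30.7 and 27.7 in rd10 P18. These correlations are a description over 8 libraries that share 4 groups.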

How the data were processed

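The authors made poly(A) libraries from whole retina and deposited a table of raw read counts per Ensembl gene. Their processing notes name HISAT2. For the aligner version, counting tool, genome build and annotation, nothing is given in the sources used here. Gene names, positions and coding sequences came from GENCODE M21 (GRCm38), which names 52029 of 57010 identifiers, and promoters from RefSeq. Its gene models may differ from the authors'. Counts were fitted with edgeR 4.0.16 (R 4.3.3): filterByExpr (minimum count 10), TMM, and a robust quasi-likelihood fit of 4 group means over all 8 libraries, with 4 residual degrees of freedom. DESeq2 1.42.0 was an alternative, as were other scalings, filters, sample sets, terms for sex and replicate number, summed Bcl2a1 copies and each library left out. The edgeR code was tested on simulated data. CPM used TMM-scaled totals. Folds against a group at 0 used a floor of 3 counts over the group. Replicates of 1 group differed beyond counting noise, so none was merged in the fits. The chi-square per gene was 95.0 in rd10 P18 and 23.0 to 36.7 in the other groups. The folds given for the Bcl2a1 copies used counts summed over the libraries of each group. Named genes were the 10 members, every listed pathway gene called in any comparison, every Bcl2a1 copy, the gene of each list with the largest absolute log2 fold change in rd10 P18 against WT P15, and the 5 genes most correlated with Bcl2a1b (mean CPM at least 1). Counts of called members leave out Bcl2a1b, whose rd10 level chose it. Members, lists and tests were chosen with earlier results of these data known. Intervals and floors cover counting error only. Purified microglia and MNU samples of the study were not analysed here. For 1 gene of the apoptosome list no values are reported here.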

Additional observations from a re-analysis of the deposited data

How the results depend on the processing

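Over 54 fold changes of the 9 members other than Bcl2a1b, 370 of 378 values under other tools, scalings, filters, sample sets or terms kept direction and the joint call (adjusted p and fold together), as did 407 of 432 with 1 library left out. The adjusted p alone crossed 0.05 in 5 and 14 of these values, and the fold its threshold in 3 and 11. None of these fold changes was called in the main fit, so keeping the call meant staying uncalled. The values with 1 library left out include libraries outside the comparison, which left the fold nearly unchanged. All 24 reversals among them came from leaving out a library of the groups compared. The count of called members was 0 in each comparison. DESeq2 gave 1 (Bbc3) at P15 against WT P15, and dropping the fold threshold gave 1 (Mcl1) at P18 against WT P15. With 1 library left out the count ranged from 0 to 1 at P15 against WT P15, where Bbc3 was called without rd10 P18 replicate 1, and stayed at 0 elsewhere. Over all genes DESeq2 called 421, 948 and 571 genes at P15, P18 and P21 against WT P15, against 47, 303 and 79 with edgeR, and with 1 library left out the edgeR counts were 6 to 246, 39 to 1250 and 4 to 210. Without WT replicate 1 they were 9, 39 and 4, and without rd10 P18 replicate 2 they were 232, 1250 and 207. A replicate block left the count of called members at 0, but gave an adjusted p of 0.071 for Mcl1 at P18 against WT P15, and 16, 232 and 18 genes over all. Same-numbered libraries did not deviate together (r from -0.025 to 0.059). The term for sex was set by replicate 1 against replicate 2 at P18 and P21 alone, so it cannot be told from replicate number. With it, Bax was -0.30 at P15 and -0.095 at P21, and Bak1 0.076 and Bcl2l11 0.13 at P21, all against WT P15. Bak1 was -0.050 at P18 against P15, and each of these was a reversal. With library size only, Bak1 was 0.093 at P21 against WT P15 and Bcl2 0.0103 at P18 against P15, also reversals. With 1 library left out, signs also turned within these log2 ranges. At P15 against WT P15 these were Bax -0.011 to 0.18, Pmaip1 -0.64 to 0.89 and Bcl2l11 -0.33 to 2.23. At P18 against WT P15 it was Bcl2l11, -0.51 to 2.06. At P21 against WT P15 they were Bax -0.0135 to 0.22, Bak1 -0.23 to 0.26, Pmaip1 -0.67 to 0.34 and Bcl2l11 -0.91 to 1.66. At P18 against P15 they were Bcl2 -0.27 to 0.17, Bak1 -0.12 to 0.22, Pmaip1 -0.36 to 1.18 and Bcl2l11 -0.43 to 0.034. At P21 against P15 they were Bcl2l1 -0.021 to 0.11, Bax -0.10 to 0.13 and Pmaip1 -1.14 to 0.40, and at P21 against P18 Bmf -0.26 to 0.19. The causes were not tested. With 0 counts of Bcl2a1b in WT P15, depth leaves its fold as a lower bound.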
